A study of Polypedilum vanderplanki with 8 samples.

Results

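Peaks of open chromatin that follow each other closely along chromosomes 1 to 3 of Pv11 cells are described here. A dense run was a row of at least 4 peaks in which each gap to the next peak was 1000 bp or less. Its peaks narrower than 3000 bp were the members, chosen by their spacing and width alone, so that both are descriptions and were not tested. There were 2702 members among the 12035 peaks of the list, or 24.6% of the 10998 peaks on chromosomes 1 to 3. They lay in 545 runs, together with 212 peaks of 3000 bp or wider, which counted towards a run but were not members. The members were compared with the other 7850 peaks below 3000 bp on the same chromosomes.

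Pv11 is a cell line from the sleeping chironomid Polypedilum vanderplanki, a midge whose larvae survive almost complete drying, and the cells have kept this ability. ATAC-seq libraries came from wild-type Pv11 cells treated with 600 mM trehalose for 48 h (n = 3), the sugar treatment that prepares them for desiccation, and from the same cells before the treatment (n = 3). One MinION library each came from B2 and 4C, subclones of the KH pool, into which an AcGFP1 plasmid had integrated at random. The accessibility data were acquired to look at chromatin around sites that tolerate such insertions. Only 1 peak list was deposited by the authors, and it bears neither a library nor a condition. Each value below is therefore one value for the experiment, with no replicate error, no comparison of trehalose with normal culture and no test between sets of peaks.

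In ATAC-seq a transposase inserts adapters where DNA is not covered by nucleosomes, so that active promoters, enhancers and insulators collect many fragments. In insects, genes that are used in several tissues or stages often have several enhancers near each other, within introns and upstream of the start. Such stretches appear as neighbouring peaks. The list gives no sign of the function of a peak, and since the genome build behind its positions is not stated, no gene is named at any run.

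For each peak the list gives an area, which is the signal of the peak caller over the whole peak, of a quantity that is not stated. The area divided by the width is called the area per bp, and peaks below 1 are called faint. Strong and weak refer below to this value alone. How it relates to the number of fragments and to the significance given by the caller is not stated. No peak of the list had an area below 200.02 or a width below 100 bp, and no gap on chromosomes 1 to 3 was shorter than 101 bp. Because of this lower limit on the area, a narrow peak could only be listed with a high area per bp. Members and the other peaks were therefore also compared within classes of width. Comparisons by position in a run, by run size or by the presence of a wide peak were not made within such classes.

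Most dense runs were short. Runs of 4 peaks made up 238 of the 545 (43.7%), runs of 5 peaks 142 and runs of 6 peaks 66, whereas 22 runs held 10 peaks or more. The median run spanned 6053 bp (quartiles 4286 and 9318 bp), and the shortest spanned 1146 bp. Peaks covered a median of 76.9% of the span of a run (quartiles 66.7% and 83.9%). All runs together spanned 4249 kb, or 4.11% of the 3 chromosomes up to their last peaks. The members alone held 23.6% of the bases in peaks on these chromosomes and 20.9% of the summed area. At least 1 peak of 3000 bp or wider was present in 149 runs (27.3%), and 46 of these had more than 1.

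**Figure D1:**
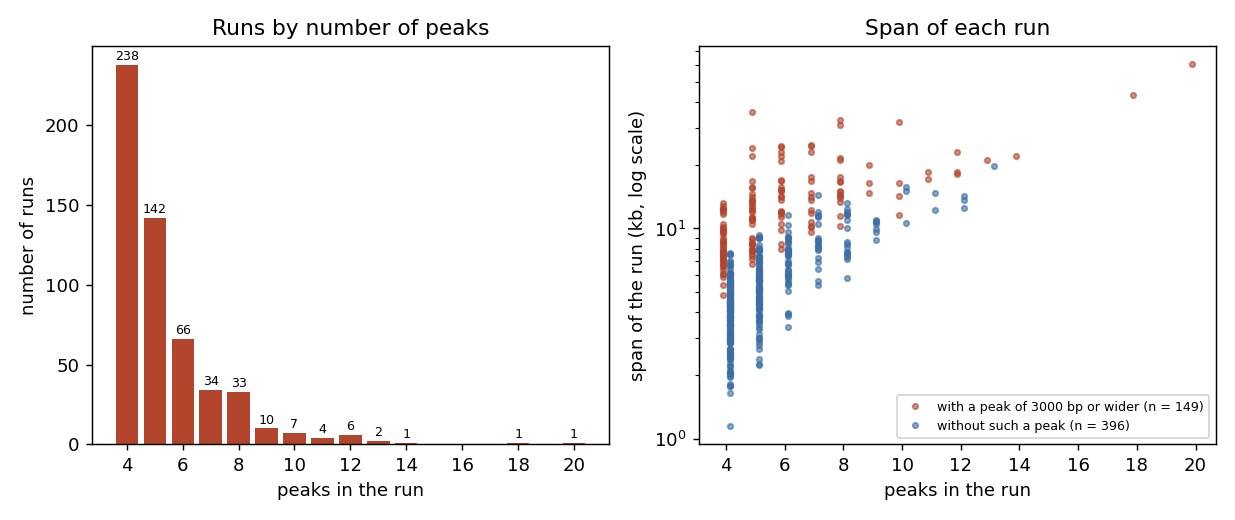
Left, number of dense runs by the number of peaks they hold; right, span in kb (log scale) of each of the 545 runs against its number of peaks, for runs with (n = 149) and without (n = 396) a peak of 3000 bp or wider. Counts fall from 238 runs of 4 peaks to single runs of 14, 18 and 20 peaks, and the longest span is 60.6 kb.

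The gaps inside dense runs were mostly short. Of 2369 gaps, 881 (37.2%) were at most 200 bp long and 322 (13.6%) were 201 to 300 bp, and the median was 294 bp (quartiles 149 and 547 bp). In the 2324 gaps of runs of 2 or 3 peaks, 938 (40.4%) were at most 200 bp long and the median was 265 bp. Gaps of this shortest class were the most frequent in both. Summits, the positions of strongest signal, were a median of 1235 bp apart in dense runs and 983.5 bp apart in runs of 2 or 3 peaks. Whether neighbouring peaks are separate openings or one stretch divided by the threshold of the caller cannot be told apart from the list.

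Small 4-peak runs show what the members look like. For each chromosome, a run of 4 peaks without a wide peak and with a summed area nearest the median of such runs was taken, a choice made after the values were seen. On chromosomes 1 and 3 another run was equally near. On chromosome 1 this run lay from 21379367 to 21384863, and its peaks had areas per bp of 3.11, 0.615, 4.40 and 0.388 along the chromosome. Strong and faint peaks alternated in it. On chromosome 2, from 17637633 to 17642556, the areas per bp were 4.00, 0.814, 0.607 and 2.86. Here the outer peaks were the strong ones, 1256 and 1584 bp wide, and the inner ones were 340 and 382 bp wide. On chromosome 3, from 27924494 to 27926714, the areas per bp were 3.64, 6.62, 2.19 and 4.78. No peak of this run was faint, the gaps were 103, 103 and 291 bp, and the whole run spanned 2221 bp. The equally near run on chromosome 3, from 19204465 to 19209847, was weaker, with areas per bp between 0.379 and 2.10.

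The run with the most peaks was on chromosome 1, from 21805585 to 21866226. It had 20 peaks over 60642 bp, of which 15 were members. Its first part held wide peaks of 3843, 5158, 10075 and 18126 bp, with a single member of 1576 bp among them. The peak of 18126 bp, from 21827538 to 21845663, had an area of 107524, or 30.7% of the area of the run. After it came 2 faint members of 248 and 251 bp, with areas per bp of 0.868 and 0.877, and then 12 members and 1 wide peak up to the end of the run. These 12 members had areas per bp between 2.44 and 14.1, and the last of them, only 412 bp wide, had the highest. Of the 15 members, 2 were below an area per bp of 1, and the median was 6.48.

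The run of 18 peaks, also on chromosome 1, lay from 34642225 to 34685524 and held 14 members. Its members had a median area per bp of 2.81, with 0.798 as the lowest and 16.2 as the highest. The highest belonged to the last peak of the run, 2060 bp wide, which lay 132 bp after a peak of 11364 bp with an area of 139237. A stretch of 6 members from 34646914 to 34651842 had areas per bp of 2.20, 4.32, 0.870, 1.17, 2.15 and 1.22. The wide peak after it, 3005 bp from 34652828, had an area per bp of 14.2.

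The run with the most peaks on chromosome 3 had 14, from 21020234 to 21042394, of which 13 were members. Its first 6 members had areas per bp of 0.669, 1.19, 1.44, 0.559, 2.17 and 0.643. They were followed by a wide peak of 4984 bp, and the last member, of 2094 bp, had 16.1. Strength in this run thus differed up to 28.9-fold between its peaks.

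Chromosome 1 held both runs of 13 peaks. The one from 9484898 to 9506102 held 11 members, whose areas per bp ran between 0.733 and 15.9. The 7 peaks that ended it, from 9499744 on, comprised the strongest, of 1707 bp, and then 6 peaks of at most 689 bp with areas per bp between 0.733 and 3.91. The other run of 13, from 6924780 to 6944579, had no wide peak, and its 13 members ran between 600 and 1837 bp. Its areas per bp lay between 0.574 and 5.59, with a median of 1.67, below the median of 2.39 over all members, and 4 of the 13 were above that value.

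This run was followed after 1208 bp by another of 12 peaks, from 6945788 to 6963906. Both together made 25 peaks, the most in any of the 20 pairs of dense runs that were separated by at most 2000 bp. On chromosome 2 the most peaks in a run were 12, in 2 runs. The one of longer span lay from 33972035 to 33995078. Its 11 members had a median width of 1358 bp and a median area per bp of 5.12, and none was below 1.07. The strongest member, of 1358 bp, had 13.4 and lay between weaker neighbours of 1379 bp (1.07) and 429 bp (4.50). The other run of 12, from 6542907 to 6561534, held 10 members with a median of only 1.40 and a highest value of 3.72.

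**Figure D2:**
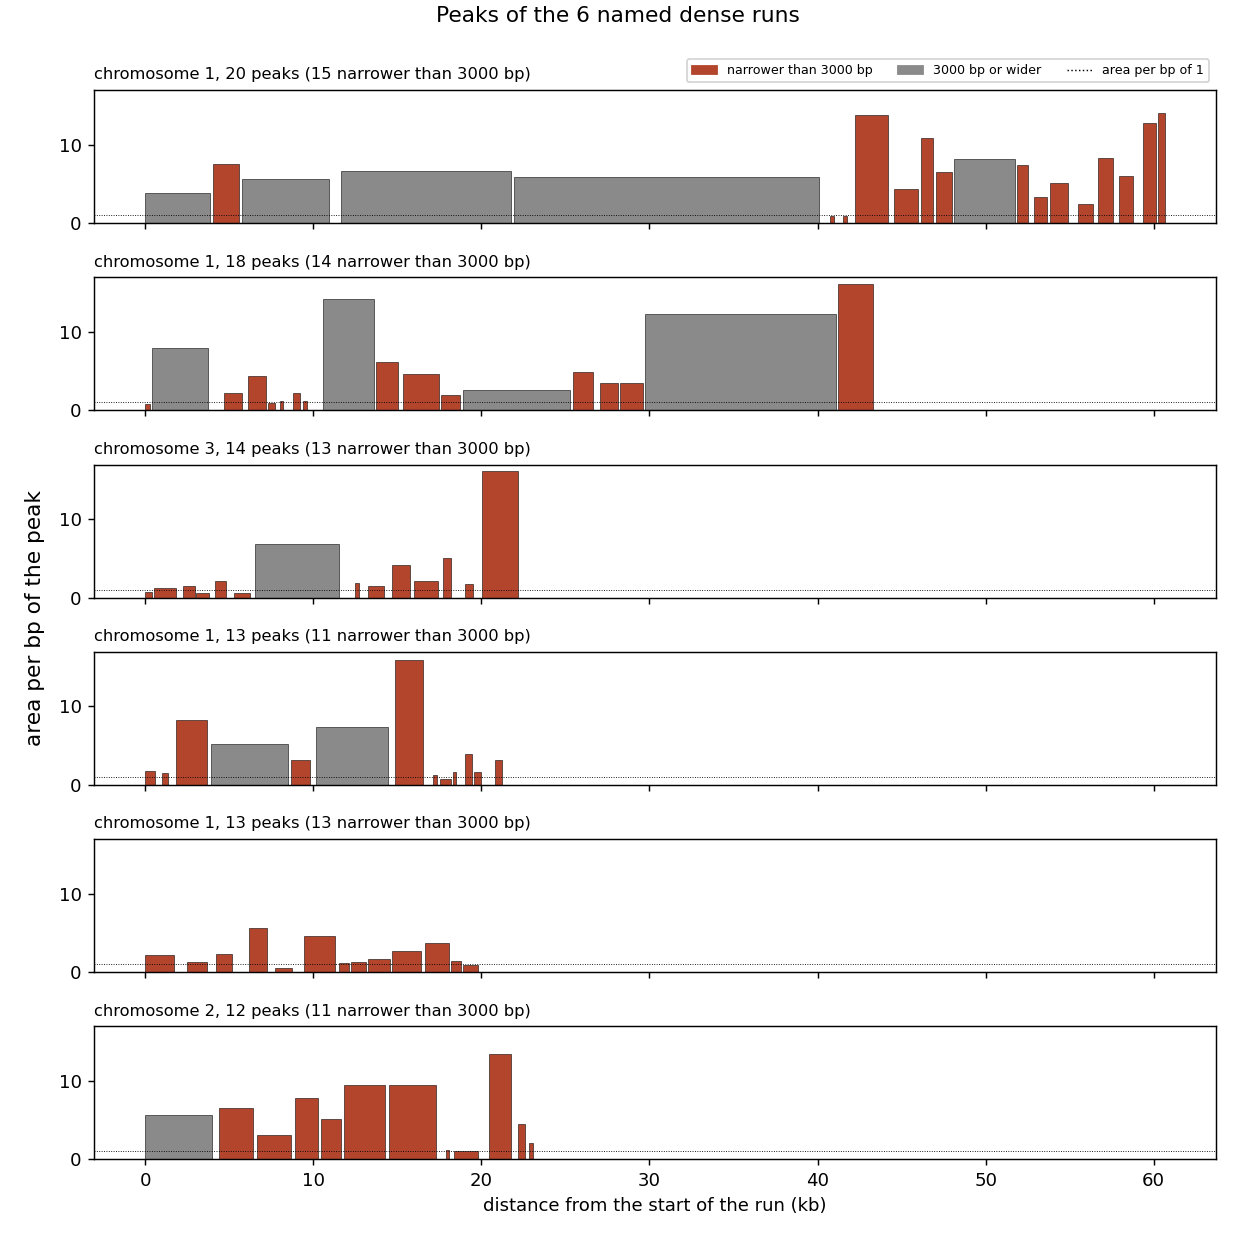
Area per bp of each peak against the distance from the start of the run in kb, for the 6 dense runs named in the text; the width of a bar is the width of the peak, members are in colour and peaks of 3000 bp or wider are grey. The dotted line marks an area per bp of 1, and in each run at least 1 peak is more than 9-fold stronger than another.

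Within a run the peaks were unequal. The strongest peak of a run had a median of 6.96 times the area per bp of its weakest (quartiles 4.47 and 11.3). In runs of 4 peaks alone this was 5.27 times. The peak with the largest area held a median of 55.5% of the area of its run, and it was a wide peak in 139 of the 545 runs. It was the first or last peak in 194 runs (35.6%), while the first and last positions made up 40.7% of positions when averaged over runs. Neighbouring members differed by a median of 2.20-fold in area per bp. Neighbours in runs of 2 or 3 peaks differed by 2.13-fold. Those more than 1000 and at most 5000 bp apart differed by 2.07-fold, so unequal neighbours were not particular to dense runs. Over 2033 neighbouring pairs of members, log2 area per bp had a Pearson r of 0.21 and a Spearman rho of 0.19. In 2141 pairs of runs of 2 or 3 peaks these were 0.12 and 0.091, and in 2893 pairs of neighbours more than 1000 and at most 5000 bp apart they were 0.12 and 0.11. All pairs come from one list and share its libraries, and pairs of one run share a peak, so these correlations are descriptions. All of them are weak.

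Members at the first or last position of a run were narrower and weaker in the median than members inside it. The 1031 end members had a median width of 611 bp and a median area per bp of 2.25, against 695 bp and 2.51 for 1671 interior members. The ratio of the medians was 0.896, and it was 0.919, 0.851 and 0.889 on chromosomes 1, 2 and 3. In runs without a wide peak the medians were 2.29 at the ends and 2.62 inside. The order was the same in runs of each size: 2.29 and 2.41 in runs of 4, 2.26 and 2.52 in runs of 5, 2.15 and 2.66 in runs of 6 or 7, and 2.20 and 2.34 in runs of 8 or more. Faint peaks made up 17.1% of end members and 16.5% of interior members. On chromosome 1 the order of these shares was the opposite, with 15.7% and 17.0%, against 18.8% and 17.9% on chromosome 2 and 16.7% and 13.9% on chromosome 3. End and interior members were not compared within classes of width, and the part of their different widths was not tested. An end member is by definition bordered on one side by a gap above 1000 bp. The summit of an end member lay on the side facing the run in 553 of 1031 (53.6%).

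Members in runs with a wide peak were wider than members in runs without one. The 694 members in such runs had a median width of 806 bp and a median area per bp of 2.14, against 622 bp and 2.47 for the 2008 members of the other runs. The 291 members directly next to a wide peak had a median width of 867 bp and a median area per bp of 2.26. Of the 275 that had a wide peak on one side only, 132 (48.0%) had their summit on that side.

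Members had a median width of 656 bp, against 466 bp in the other peaks below 3000 bp. Gaps were measured from edge to edge, so that the rule itself favours wider peaks, and this difference is a description only. The median area per bp was slightly lower in members. The median area was 1388 in members and 1155 in the other peaks, and the median area per bp was 2.39 in members (quartiles 1.25 and 4.86) and 2.68 in the other peaks (quartiles 1.54 and 4.69). The distributions overlapped almost wholly. The ratio of the median areas per bp was 0.891, and it was 0.935, 0.873 and 0.877 on chromosomes 1, 2 and 3. When only peaks with a -log10 q, the significance that the caller gave a peak, of at least 4 were kept, it was 1.01. The spread of members was larger at both sides: the 5th and 95th percentiles were 0.616 and 11.03 in members, against 0.739 and 10.3 in the other peaks. The median -log10 q was 7.59 in members and 7.73 in the other peaks, and this small difference changed direction with the settings.

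Within classes of width the difference was largest in peaks of 250 bp to below 1000 bp. From 250 to below 500 bp, 667 members had a median area per bp of 1.57, against 2.21 in 2527 other peaks, a ratio of 0.711. From 500 to below 1000 bp, 867 members had 2.17, against 2.91 in 2144 other peaks, a ratio of 0.745. On each of the 3 chromosomes the ratio was below 1 in both classes, with a range of 0.667 to 0.75 in the narrower and 0.618 to 0.819 in the wider class. Below 250 bp the medians were 2.0 in members and 2.16 in the other peaks, and from 1000 to below 2000 bp they were 4.09 and 4.31. From 2000 to below 3000 bp the order was the opposite, with 5.77 in 173 members and 5.29 in 301 other peaks.

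**Figure D3:**
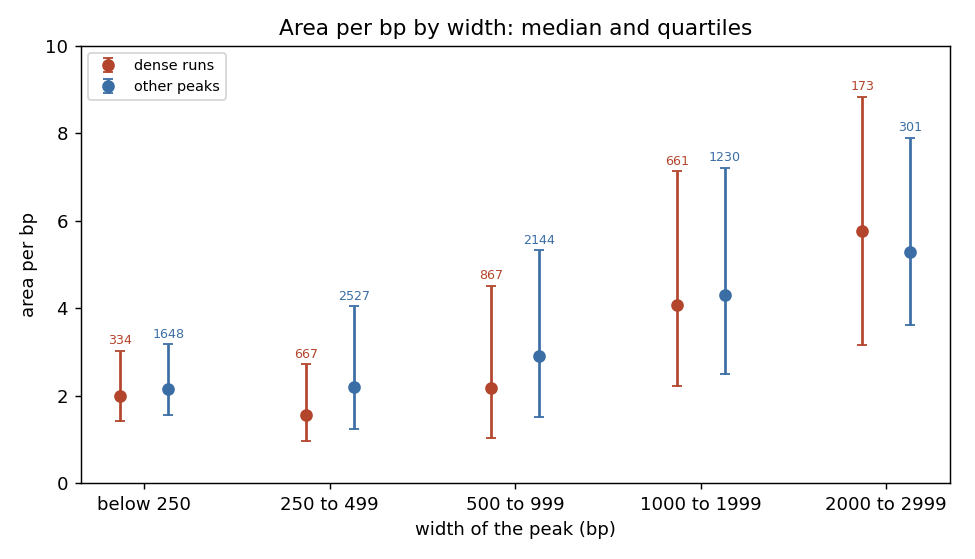
Median area per bp (points) with quartiles (bars) for members of dense runs and for the other peaks of chromosomes 1 to 3, by width of the peak in bp; numbers give the peaks in each set. Members lie lowest relative to the other peaks from 250 to below 500 bp (1.57 and 2.21) and from 500 to below 1000 bp (2.17 and 2.91).

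Faint peaks were more frequent among members. There were 451 of 2702 members (16.7%, exact Clopper-Pearson 95% interval 15.3% to 18.2%) and 852 of 7850 other peaks (10.9%, 10.2% to 11.6%). These intervals cover counting error only, and peaks of one run are not independent. Because no listed area was below 200.02, a peak of 200 bp or less could not be faint. Peaks below 250 bp were 334 of the 2702 members and 1648 of the 7850 other peaks. The pooled shares therefore depend in part on width, which the rule itself favours, and are a description only. The shares were 7.82% and 4.72% when only peaks with an area of at least 400 were kept, and 6.05% and 4.13% with a -log10 q of at least 4. On chromosomes 1, 2 and 3 the shares were 16.5%, 18.3% and 15.02% of members, against 11.3%, 10.8% and 10.3% of the other peaks. From 250 to below 500 bp 27.3% of members were faint, against 17.2% of the other peaks, and from 500 to below 1000 bp 23.4% were, against 14.2%.

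The share of faint peaks was lowest in peaks without a neighbour. It was 9.14% in peaks with no other peak within 1000 bp, 11.8% in runs of 2, 13.9% in runs of 3, 16.7% in runs of 4, 13.4% in runs of 5, 18.7% in runs of 6 or 7 and 18.6% in runs of 8 or more. The order was thus broken at runs of 5. The intervals of neighbouring sizes overlapped from runs of 2 on, but they treat peaks of one run as independent and are no test between sizes. The median width also differed with run size, at 422.5 bp in peaks without a neighbour and 737.5 bp in runs of 8 or more. The classes of width above pool the run sizes within members and within the other peaks. The part of width in the shares by run size was therefore not tested. The background around a peak and the depth of the libraries are not in the list, and their part was not tested.

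**Figure D4:**
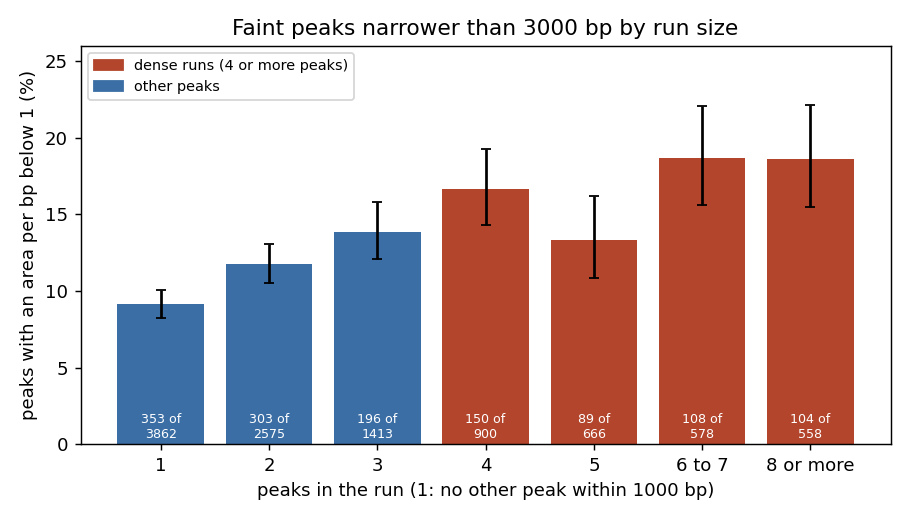
Share in percent of peaks narrower than 3000 bp with an area per bp below 1, by the number of peaks in their run, with exact Clopper-Pearson 95% intervals; counts are written in the bars. The share is 9.14% in peaks without a neighbour, 11.8% in runs of 2, 13.9% in runs of 3 and between 13.4% and 18.7% in dense runs. The intervals treat the peaks of one run as independent.

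The strongest members per bp came from all 3 chromosomes. Of the first 5, 2 lay next to a wide peak, as did 291 of all 2702 members. The largest area per bp of all members, 26.2, belonged to a peak of 1161 bp on chromosome 1, from 22375470 to 22376630, the fourth of a run of 6. On chromosome 2 a peak of 1120 bp from 2625006 to 2626125 had 25.6, in a run of 7. These were the sixth and the ninth highest on the 3 chromosomes. Next came a peak of 1961 bp on chromosome 3, from 13535840 to 13537800, with 23.1, at the end of a run of 6.

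The member from 2872023 to 2874083 on chromosome 2 had an area per bp of 22.8 and a -log10 q of 51.0, the highest of all members. It lay 137 bp before a peak of 14487 bp with an area of 160217. The member from 19168053 to 19169570 on chromosome 3 had 21.5, in a run of 9, and lay next to a peak of 3689 bp. Another peak of this run, its last, from 19172782 to 19175332, was among the 5 members of largest area, with 43310 over 2551 bp.

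The largest areas of members were 48210, in the peak of 2590 bp from 6375152 to 6377741, and 47413, in the peak of 2763 bp from 27713646 to 27716408, both on chromosome 3. Their areas per bp were 18.6 and 17.2. The members on chromosome 2 from 2872023 and on chromosome 3 from 13535840 followed, with 46923 and 45357. The smallest areas of members were 200.1 on chromosome 3, from 20000719 to 20001138, and 200.5 and 200.6 on chromosome 2, from 12697423 to 12697987 and from 22346215 to 22346444. All 3 of these were the first or last peak of their run, as were 1031 of all 2702 members.

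Members were found among the strongest peaks per bp and also among the faintest. Of the 100 peaks below 3000 bp with the highest area per bp 33 were members, and of the 100 with the lowest 37 were, while members made up 25.6% of all such peaks. Of the 20 highest 4 were members, and of the 20 lowest 5 were. Wide peaks were in dense runs more often than narrower ones, 212 of 446 (47.5%). Gaps were measured from edge to edge, so that the rule itself favours wide peaks. Their share in dense runs, also among the peaks of largest area, is a description only. Of the 20 peaks of largest area on the 3 chromosomes 15 lay in dense runs, and all 20 were 3000 bp or wider and so were not members. Wide peaks in dense runs had a median area per bp of 7.34, against 6.61 for the 234 elsewhere.

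Dense runs were spread over all 3 chromosomes. There were 196 on chromosome 1, 191 on chromosome 2 and 158 on chromosome 3, or 5.32, 5.42 and 5.05 per Mb up to the last peak. Members made up 25.3%, 23.9% and 24.4% of the peaks there. Over 102 complete bins of 1 Mb the number of runs had a median of 5 and ran between 0 and 13, with 0 in 2 bins and at least 10 in 12. The median distance between one run and the next was 110150 bp on chromosome 1, 112456 bp on chromosome 2 and 106488 bp on chromosome 3. The shortest was 1027 bp, on chromosome 2, and the longest was 1329500 bp, on chromosome 1.

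Peaks around the limits of the rule are given as a description. The widest members were 2981, 2966 and 2962 bp, with areas per bp of 2.48, 7.23 and 3.96. The narrowest peaks of dense runs beyond the limit were 3000, 3005 and 3011 bp, with 4.74, 14.2 and 3.42. The longest gap that still joined peaks of a run was 1000 bp, on chromosome 3 from 28361071 to 28362070. The shortest beyond the limit that bordered a dense run was on chromosome 2 from 10110500 to 10111500, and kept a single peak out of a run of 4.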

How the data were processed

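ATAC-seq libraries of Pv11 cells were sequenced as paired ends on a HiSeq 2500. The submitters' processing notes name CASAVA, Bowtie2 2.3.4.3, SAMtools 1.11-5, Picard and Genrich 0.6, without their roles. No source used here gives the build, the read filters, the caller options or which libraries were used, so that the depth is unknown. The 2 MinION libraries were not analysed here. The authors deposited 1 list of 12035 peaks in narrowPeak layout. The signal column as deposited by the authors (the area) was made by the peak caller, with no stated normalization. The score deposited by the authors was the area per bp times 1000, rounded, with an upper limit of 1000, which was checked in all peaks. From the significance columns deposited by the authors, the q-value as -log10 was used and the p-value was left out.

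Peaks were sorted by start and joined into runs with pandas 2.3.3 and numpy 2.4.6 (Python 3.11.15), and the code was tested on simulated data. Intervals were taken with scipy 1.17.1 and figures drawn with matplotlib 3.10.9. Positions are 1-based. Alternatives changed the gap, the run length, the width limit, the chromosomes, the area and the q. Items named were the 5 runs with most peaks and the run with most peaks on each chromosome (ties by span), the 5 members of largest area and of largest area per bp, the 3 of smallest area, and those at the limits; the example runs, the close pairs of runs and other single runs and peaks were chosen after their values were seen. The members and the measures were chosen with earlier results of these data known. Planned results on genes, transcription starts and base composition were not run: no genome was used here, and the gene table at hand (assembly Pv_5.2) was not used because the build of the list is not stated.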

Additional observations from a re-analysis of the deposited data

Results flagged for a closer look

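Closely spaced peaks were also present outside chromosomes 1 to 3, which drew attention because these sequences were not part of the comparisons above and no control library is in the list. On chromosome 4, 171 of 968 peaks (17.7%) met the same rule, in 34 runs. They had a median area per bp of 5.12, against 3.37 in the other peaks below 3000 bp of that chromosome, the opposite order to chromosomes 1 to 3, and this was not tested. On 23 unplaced scaffolds, 25 of 69 peaks met the rule, in 5 runs of at most 6 peaks. Their median area per bp was 2.05, against 3.77 in the other peaks below 3000 bp there.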

How the results depend on the processing

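The number of members followed the rule: 1168 with a run gap of 500 bp, 4500 with 2000 bp, 4115 with runs of 3 or more peaks, 1521 with an area of at least 400 and 1736 with a -log10 q of at least 4. The spread used for the ratios below is the SD over the 3 chromosomes, since the list has no replicates. Values of single chromosomes cannot be judged by this SD, because it is made from them. The ratio of the median area per bp of members to that of the other peaks was 0.891 and stayed below 1 except with a -log10 q of at least 4 (1.01). It moved by more than that SD with an area of at least 400 (0.964), a gap of 500 bp (0.933), a width limit of 5000 bp (0.928) and the same width class (0.822). On chromosome 1 alone it was 0.935. The ratio of the median -log10 q was 0.982. It passed 1 with a -log10 q of at least 4 (1.09), an area of at least 400 (1.03), a width limit of 5000 bp (1.03), a gap of 500 bp (1.02), runs of 3 or more (1.01), chromosome 4 added (1.01) and chromosome 1 alone (1.001), and was 0.949 with a width limit of 2000 bp, 0.952 on chromosome 3 and 0.852 in the same width class, an alternative added after seeing the data. The ratio of end to interior members was 0.851 on chromosome 2, 0.932 with runs of 3 or more, 0.953 with an area of at least 400, 0.981 with a gap of 2000 bp and 0.732 with 500 bp. The median summit position of members, as a fraction of the width, was 0.508, and was 0.501 on chromosome 2 and 0.499 with runs of 5 or more peaks. The cause of these changes was not tested. The share of faint peaks was higher in members than in the other peaks under all of these settings for which it was computed, and lowest with a -log10 q of at least 4, at 6.05% against 4.13%. The summit distance to the nearer edge has another unit, with a median of 183 bp in members and 139 bp in the other peaks. This distance is limited by the width of the peak, and the rule favours wider peaks. Not run were all alternatives for transcription starts and the leaving out of replicates. No paired analysis was possible because replicates are not separated in the list.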
